A study of Mus musculus with 22 samples.

Results

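The interstitial and vascular collagens were followed across 3 kinds of mouse mammary RNA: normal gland, Her2/Neu mammary tumour with PEA3, and Her2/Neu mammary tumour lacking PEA3. The group was a fixed list of 10 genes, Col1a1, Col1a2, Col3a1, Col5a2, Col4a1, Col4a2, Col6a1, Col6a2, Col15a1 and Col18a1. Every probe set on the MG-U74 version 2 chips A, B and C whose only gene symbol was one of them was taken, which gave 22 of 36701 probe sets and 10 of 15965 named genes. PEA3 (gene Etv4) is an ETS transcription factor, and Her2/Neu is a receptor tyrosine kinase oncogene. Per the labels, the tumour RNA came as pools from Her2/Neu transgene-induced tumours of PEA3-null mice (2 RNA samples) or of PEA3 wild-type mice (3 RNA samples), and the normal RNA from FVB mouse mammary glands (3 RNA samples, titled as pools). Both tumour groups therefore carry the Her2/Neu transgene and the normal glands do not. The promoter of the transgene, the strain of the tumour-bearing mice, the ages and the number of animals are not given in the sources used here. All 3 groups were labelled as sorted for Sca-1, a cell surface antigen, with an estimated purity of 80%. All arrays of a group carry 1 submitter sample identifier, and no label says that RNA samples came from separate animals, so p-values measure only the spread between these preparations.

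Collagens are triple helices built from 3 alpha chains, which may be identical or differ. Types I and III are the main fibrils of connective tissue and are made largely by fibroblasts, with type V as a minor chain that sets fibril diameter. Type IV forms the sheet of basement membranes under epithelium and around vessels, fat cells and muscle fibres. Type VI makes beaded filaments next to that membrane. Types XV and XVIII are multiplexins of epithelial and vascular basement membranes, and the end of the type XVIII chain is released as the angiogenesis inhibitor endostatin. In the mammary gland these proteins lie in the stroma and at the edge of the ducts.

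Signal here is the deposited MAS5 intensity of a probe set after each array was scaled to a trimmed mean of 500, and log2 differences are on the log2(signal + 32) scale, which understates changes of dim probe sets. Chips A and B were hybridised with all 8 RNA samples and chip C with 6, so 22 arrays were used. Of the 22 collagen probe sets, 19 reached a signal of 150 on at least 2 arrays of their chip type and were tested. The 3 not tested were 1 probe set of Col5a2 on chip C and 2 of Col18a1. Of the 19 tested, 4 reached 150 on fewer than 2 tumour arrays and entered through the normal glands, which favours a call of lower in tumours (Col3a1 102990_at, Col5a2 163350_at, Col6a1 162459_f_at and Col15a1 99637_at). The brightest probe set of each gene over all arrays is given first below, and 7 of the 10 genes had more than 1. Etv4 itself did not separate the tumour groups: one probe set read 470 and 734 in the tumours labelled PEA3-null and 367 to 954 in the wild-type tumours, and the other 512 and 276 against 360 to 420. Where the probes lie relative to the deletion is not given in the sources used here.

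Tumour and normal arrays differed in more than tissue. The ratio of 3′ to 5′ signal of the GAPDH control, a measure of RNA integrity and labelling, was 2.58 to 6.08 on the 9 normal arrays and 0.91 to 1.25 on the 13 tumour arrays. For the actin control the ranges overlapped, at 1.28 to 2.14 on the normal arrays and 1.14 to 1.67 on the tumour arrays. Tumour and normal arrays were never scanned on the same day, so the effects of day and of tissue cannot be told apart. All 5 tumour arrays of chip A shared a day, but on chips B and C the PEA3-null arrays were scanned on other days than the wild-type arrays, where day and genotype cannot be told apart. Markers of other cell types moved with tissue as well. On chip A the summed signal of 7 skeletal muscle markers ran from 177300 to 181700 in the normal samples and from 875.7 to 3691 in the tumours. That of 8 adipocyte markers was 73700 to 83420 against 1565 to 3409, although every group is labelled as sorted. The sum of 8 luminal epithelial markers ran the other way, 5123 to 6785 in normal glands against 34940 to 41800 in tumours. Fewer cells of a type and less RNA per cell cannot be told apart in these bulk samples, and the part of these differences in the results below was not tested.

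Collagen signal was lower in tumours of both genotypes than in normal gland for 9 of the 10 genes by the brightest probe set in wild-type tumours, and for all 10 in PEA3-null tumours (limma, Benjamini-Hochberg adjusted p under 0.05). The tenth, Col1a2, kept its PEA3-null call in 12 of 20 alternative settings. In wild-type tumours 15 of the 19 tested collagen probe sets were lower than in normal glands, 0 were higher and 4 were not called. Of all 28242 probe sets tested in that comparison 10.3% were called lower and 10.5% higher. In 17 of the 19 collagen probe sets every wild-type tumour read below every normal gland, against 20.0% of all probe sets. In PEA3-null tumours 15 of 18 were lower than in normal glands, 0 were higher and 3 were not called, where 12.4% of 19275 probe sets were called lower and 12.2% higher. In 15 of those 18 every PEA3-null tumour read below every normal gland, against 24.6% of all. Without the chip A arrays of normal samples 1 and 2, whose wash was aborted, fewer collagen and fewer of all probe sets were called. Chip A then held 1 normal array. Log2 differences of the brightest probe sets still tested ran from -2.93 (Col1a1) to -0.58 (Col1a2) in wild-type tumours. In PEA3-null tumours they ran from -3.7 to -0.69 for the same genes. With all arrays, the median log2 difference of the 10 genes was -2.38 in wild-type and -2.32 in PEA3-null tumours. The median over all tested probe sets was 0.05 and 0.08. Leaving aside the 4 probe sets that entered through the normal glands, 12 of 15 were lower in wild-type tumours and 12 of 14 in PEA3-null tumours. The share of all probe sets was not computed with that exclusion. Col15a1, whose brightest probe set is among those 4, is part of the gene counts and medians above. Both comparisons share the 3 normal glands, so their likeness is not independent.

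**Figure D1:**
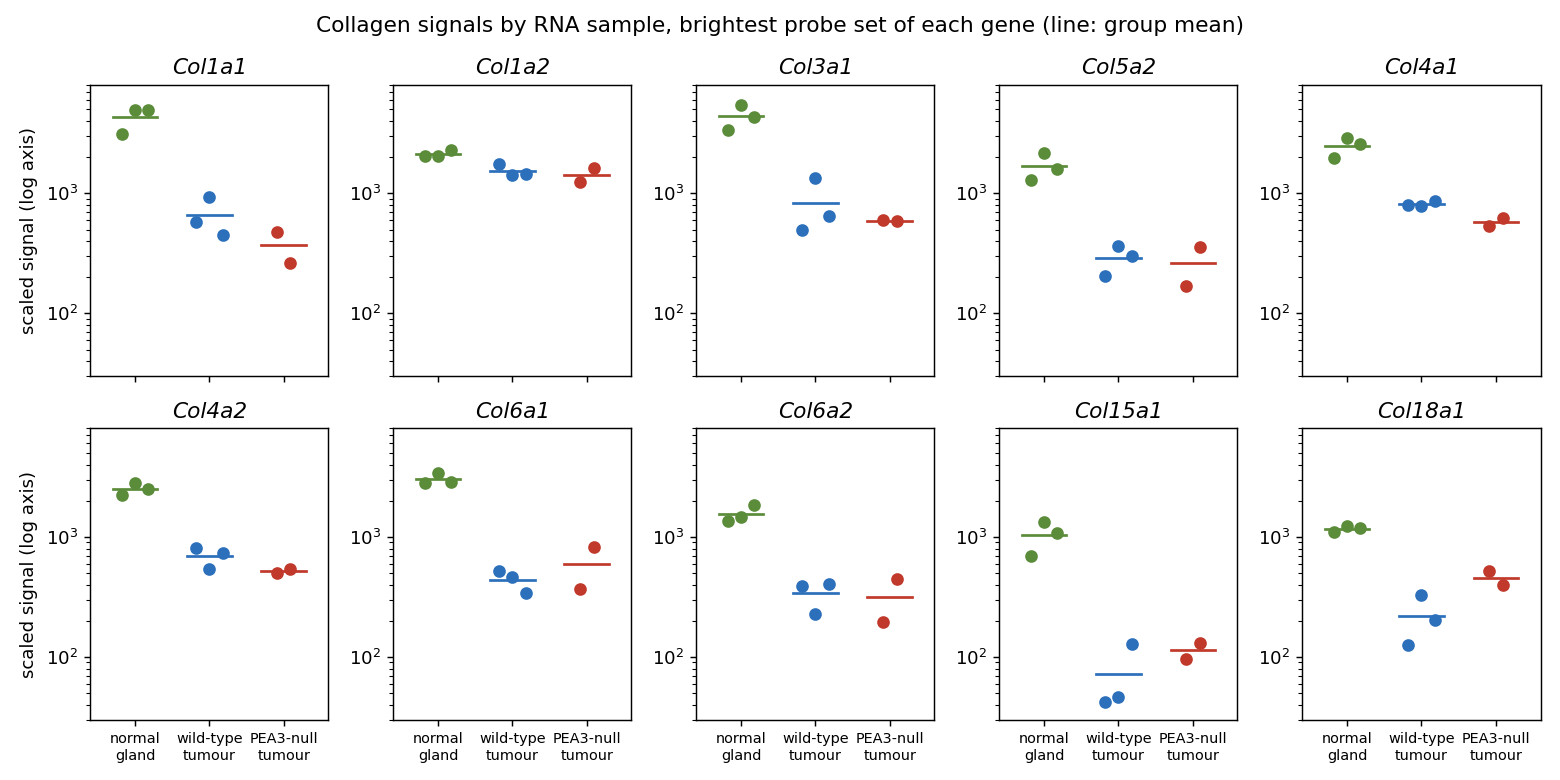
Scaled signal (log axis) of the brightest probe set of each of the 10 collagen genes in the 3 normal glands, 3 PEA3 wild-type tumours and 2 PEA3-null tumours. Points are RNA samples and lines are group means. In all 10 panels every tumour sits below every normal gland, and the gap is narrowest for Col1a2. Over all tested probe sets, 20.0% had every wild-type tumour and 24.6% every PEA3-null tumour below every normal gland. The share for both genotypes at once was not computed. Col15a1 entered through the normal glands, which favours this order.

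Col1a1 encodes the alpha 1 chain of type I collagen, the most abundant collagen of connective tissue. Its brightest probe set, 94305_at, read 3113, 4912 and 4989 in the normal glands, 578, 935 and 451 in the wild-type tumours and 478 and 262 in the PEA3-null tumours. All 5 tumours lay below all 3 normal glands, and the tumour groups overlapped. Col1a1 was 6.5-fold lower in wild-type tumours (log2 difference -2.70, SE 0.29, limma adjusted p 4.36e-05) and 11-fold lower in PEA3-null tumours (-3.47, SE 0.33, adjusted p 1.72e-05). The other Col1a1 probe set, 103709_at, gave smaller differences of -1.73 and -1.87 (limma adjusted p 0.000111 and 0.000152).

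Col1a2 encodes the partner chain, alpha 2, and its 2 probe sets gave very different sizes of change. The probe set 101130_at read 3643, 4329 and 4293 in the normal glands, 219, 1011 and 280 in the wild-type tumours and 257 and 205 in the PEA3-null tumours. The groups were far apart, with wild-type tumour 2 the highest tumour. This probe set was 9.46-fold lower in wild-type tumours (log2 difference -3.24, SE 0.41, limma adjusted p 0.000151) and 15.7-fold lower in PEA3-null tumours (-3.97, SE 0.46, adjusted p 8.28e-05). The brightest Col1a2 probe set, 161156_r_at, read 2066, 2029 and 2314 in normal glands, 1756, 1430 and 1456 in wild-type tumours and 1246 and 1615 in PEA3-null tumours. Tumours and normal glands did not overlap on it either, but the gap was small. Its difference was -0.46 (SE 0.16, limma adjusted p 0.056) in wild-type tumours, which did not pass the threshold, and -0.58 (SE 0.17, adjusted p 0.0304) in PEA3-null tumours. The PEA3-null call on this probe set was lost without PEA3-null tumour 1 (limma adjusted p 0.172), without normal gland 1, 2 or 3 (adjusted p 0.066, 0.0632 and 0.0986) and without the aborted-wash arrays (0.123). It was also lost with the replicate number as a block (limma adjusted p 0.0859), with no variance trend (0.0936) and with array weights (0.0567). The wild-type value passed without PEA3-null tumour 1 or 2 (limma adjusted p 0.0304 and 0.0308) or without wild-type tumour 1 (0.0445). It also passed with median scaling (limma adjusted p 0.0403), a filter at 300 (0.0476), array weights (0.0298) and the 2 groups alone (0.0295). Which of the pair reads Col1a2 more faithfully was not tested.

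Col3a1 makes type III collagen, the fibril of loose stroma and vessel walls. Its brightest probe set, 98331_at, read 3349, 5437 and 4331 in the normal glands, 494, 1352 and 646 in the wild-type tumours and 597 and 590.5 in the PEA3-null tumours. The tumours were all below the normal glands, and wild-type tumour 2 stood above the other four. Col3a1 was 5.47-fold lower in wild-type tumours (log2 difference -2.45, SE 0.30, limma adjusted p 0.000126) and 6.91-fold lower in PEA3-null tumours (-2.79, SE 0.34, adjusted p 0.000122). The dimmer 161984_f_at changed by -2.18 and -2.29 (limma adjusted p 0.00195 and 0.00283). The dimmest, 102990_at, lay between 245 and 321 in the normal samples, while its tumour signals of 15.7 to 149.8 were all under the minimum, so its values of -1.32 and -2.45 are given as a description.

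Col5a2, the alpha 2 chain of type V collagen, read 1304, 2185 and 1585 in the normal glands on 92567_at, 206, 364 and 302 in the wild-type tumours and 171 and 360 in the PEA3-null tumours. The tumours lay far below the normal glands and the genotypes overlapped. Col5a2 was 5.33-fold lower in wild-type tumours (log2 difference -2.41, SE 0.30, limma adjusted p 0.00013) and 5.98-fold lower in PEA3-null tumours (-2.58, SE 0.34, adjusted p 0.000193). The chip B probe set, 163350_at, was dim throughout, from 9.74 to 211, and passed in neither comparison (-1.53, limma adjusted p 0.102, and -0.29, adjusted p 0.804). Wild-type tumour 2 was the highest of its group on the brightest probe sets of Col1a1, Col3a1, Col5a2 and Col18a1. It was the lowest of its group on those of Col1a2, Col4a1, Col4a2 and Col6a2. Its summed signal of 10 fibroblast markers on chip A was 4380, against 3200 and 3381 in the other wild-type tumours, 3254 and 4370 in the PEA3-null tumours and 37830 to 39390 in normal glands.

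RefSeq promoters (GRCm38.p6) were on hand for 8 of the 10 genes. The Col1a2 and Col3a1 windows are shown because these fibrillar genes fell together on 101130_at and 98331_at while their promoters differ in base content. On the brightest Col1a2 probe set, 161156_r_at, the change was far smaller (-0.46 in wild-type and -0.58 in PEA3-null tumours). Each window is the 250 bases before the RefSeq start on the gene's strand, Col1a2 at chr6:4505368-4505617 (plus) and Col3a1 at chr1:45311288-45311537 (plus). Capitals mark the motifs CCAAT and GGGCGG, read on either strand, so that a reverse complement is in capitals too.
Col1a2: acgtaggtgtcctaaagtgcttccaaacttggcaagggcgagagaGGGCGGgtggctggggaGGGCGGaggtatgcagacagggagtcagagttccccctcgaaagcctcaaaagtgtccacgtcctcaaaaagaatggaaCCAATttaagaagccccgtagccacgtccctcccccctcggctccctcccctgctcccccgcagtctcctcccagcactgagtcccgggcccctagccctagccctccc
Col3a1: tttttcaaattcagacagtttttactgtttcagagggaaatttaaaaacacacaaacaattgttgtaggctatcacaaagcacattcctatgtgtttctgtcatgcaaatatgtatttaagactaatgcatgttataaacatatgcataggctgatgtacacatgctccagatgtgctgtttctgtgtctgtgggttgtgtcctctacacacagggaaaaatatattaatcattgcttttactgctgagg
The Col1a2 window was 62.0% G or C and held 1 CCAAT, 109 bases before the start, and 2 GGGCGG. The Col3a1 window was 35.2% G or C, held neither, and had 1 TATAAA, 117 bases before the start. Over the 10 windows of the 8 genes, 4 held CCAAT, 5 GGGCGG and 1 TATAAA, where 33.8%, 32.7% and 12.4% of 32851 mouse promoter windows of this length did. AGGAAG, a form of the ETS core, was in 4 of the 10 windows and in 29.5% of all, again on both strands. A match describes the letters only.

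The chains of type IV collagen, Col4a1 and Col4a2, build the vascular and epithelial basement membrane together as 1 trimer. Col4a1, on 101093_at, read 1973, 2876 and 2571 in the normal glands, 801, 782 and 856 in the wild-type tumours and 532 and 622 in the PEA3-null tumours. The 3 groups did not overlap, with the PEA3-null tumours lowest. Col4a1 was 2.93-fold lower in wild-type tumours (log2 difference -1.55, SE 0.17, limma adjusted p 5.59e-05) and 4.08-fold lower in PEA3-null tumours (-2.03, SE 0.19, adjusted p 1.9e-05).

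Col4a2, on 101039_at, read 2219, 2823 and 2493 in the normal glands, 810, 546 and 737 in the wild-type tumours and 504.5 and 545.1 in the PEA3-null tumours. All tumours lay below all normal glands, and the tumour groups were barely apart, at 545.7 for the lowest wild-type and 545.1 for the highest PEA3-null tumour. Col4a2 was 3.51-fold lower in wild-type tumours (log2 difference -1.81, SE 0.18, limma adjusted p 2.56e-05) and 4.55-fold lower in PEA3-null tumours (-2.19, SE 0.20, adjusted p 1.6e-05). A chip C probe set of Col4a2, 129827_f_at, read 4207, 4569 and 5382 in normal glands, 1961 and 2269 in wild-type tumours and 1725 in the 1 PEA3-null tumour on that chip. It was 2.21-fold lower in wild-type tumours (-1.14, SE 0.23, limma adjusted p 0.0061).

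Col4a1 and Col4a2 lie head to head on opposite strands, with RefSeq starts 21 bases apart and placed so that the transcripts overlap there. Each window therefore lies within the span of the other gene, not in a gap between them. The RefSeq span of Col4a1 reaches further still, to base 11312889. The windows are shown because these members moved together. Col4a1 is at chr8:11312827-11313076 (minus) and Col4a2 at chr8:11312555-11312804 (plus), each written 5′ to 3′ on its own strand with the same capitals.
Col4a1: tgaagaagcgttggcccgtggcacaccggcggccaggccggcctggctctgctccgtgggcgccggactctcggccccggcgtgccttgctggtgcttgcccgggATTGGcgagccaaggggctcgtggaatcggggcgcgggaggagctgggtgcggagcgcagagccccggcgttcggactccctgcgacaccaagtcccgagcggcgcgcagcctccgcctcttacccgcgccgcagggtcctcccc
Col4a2: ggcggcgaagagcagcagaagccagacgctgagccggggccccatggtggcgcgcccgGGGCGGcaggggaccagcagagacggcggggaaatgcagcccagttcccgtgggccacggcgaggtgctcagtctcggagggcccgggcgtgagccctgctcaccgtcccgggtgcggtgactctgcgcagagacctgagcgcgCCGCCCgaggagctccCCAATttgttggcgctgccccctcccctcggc
Both windows are rich in G and C (74.4% for Col4a1 and 73.6% for Col4a2), and neither held TATAAA or AGGAAG. The nearest CCAAT lay 145 bases before the Col4a1 start and 32 before the Col4a2 start, and GGGCGG occurred 2 times in the Col4a2 window and 0 times in the Col4a1 window.

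Col6a1 and Col6a2 encode the shorter chains of type VI collagen, the microfibril beside the basement membrane. Col6a1, on 95493_at, read 2793, 3388 and 2860 in the normal glands, 519, 463 and 342 in the wild-type tumours and 367 and 829 in the PEA3-null tumours. The tumours were all far below the normal glands, and PEA3-null tumour 2 was the highest tumour. Col6a1 was 6.5-fold lower in wild-type tumours (log2 difference -2.70, SE 0.26, limma adjusted p 2.04e-05) and 5.18-fold lower in PEA3-null tumours (-2.37, SE 0.29, adjusted p 0.000137). On its other probe set, 162459_f_at, normal glands read 531 to 634 and tumours 12.1 to 32.1. Those tumour signals are at or below the added constant of 32, so no size of change is read from them.

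Col6a2, on 93517_at, read 1368, 1452 and 1835 in the normal glands, 387, 229.7 and 404 in the wild-type tumours and 195 and 443 in the PEA3-null tumours. Its normal glands stood above all tumours and the tumour groups overlapped. Col6a2 was 4.33-fold lower in wild-type tumours (log2 difference -2.11, SE 0.30, limma adjusted p 0.000322) and 4.79-fold lower in PEA3-null tumours (-2.26, SE 0.33, adjusted p 0.000456). The third classical chain, Col6a3, which was no member of the list, moved the same way, from 2038 to 2703 in normal glands down to 117 to 215 in tumours (-3.58 in wild-type and -3.88 in PEA3-null tumours, limma adjusted p 1.28e-06 and 1.91e-06).

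Col15a1 and Col18a1 encode the multiplexins. Col15a1, on 99637_at, read 689.8, 1334 and 1081 in the normal glands, 41.9, 46.2 and 128 in the wild-type tumours and 96.5 and 132 in the PEA3-null tumours. Every tumour was below every normal gland. All 5 tumours were also under the signal minimum of 150, so the probe set entered through the normal glands and the size of its change is imprecise. The fit gave a log2 difference of -3.41 in wild-type tumours (SE 0.38, limma adjusted p 5.67e-05) and -2.83 in PEA3-null tumours (SE 0.43, adjusted p 0.000526).

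Col18a1 had 5 probe sets, which did not all move alike. On the brightest, 99638_at, the normal glands read 1104, 1224 and 1187, the wild-type tumours 125, 329 and 203, and the PEA3-null tumours 519 and 398. The 3 groups were apart, with the PEA3-null tumours between normal glands and wild-type tumours. Col18a1 was 5.08-fold lower in wild-type tumours (log2 difference -2.34, SE 0.29, limma adjusted p 0.000111) and 2.47-fold lower in PEA3-null tumours (-1.31, SE 0.32, adjusted p 0.0113). The PEA3-null call was lost without PEA3-null tumour 2 (adjusted p 0.0676 by limma) and without the aborted-wash arrays (adjusted p 0.127). On 101880_at the order was reversed, with 45.1, 98.2 and 88.7 in normal glands, 162, 179 and 167 in wild-type tumours and 129 and 242 in PEA3-null tumours. Those differences of 0.92 and 0.98 did not pass (limma adjusted p 0.126 and 0.127), nor did 101881_g_at (-0.72 and -1.26, limma adjusted p 0.5 and 0.238). The remaining Col18a1 probe sets, 162483_f_at and 101882_s_at, were dim and not tested.

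**Figure D2:**
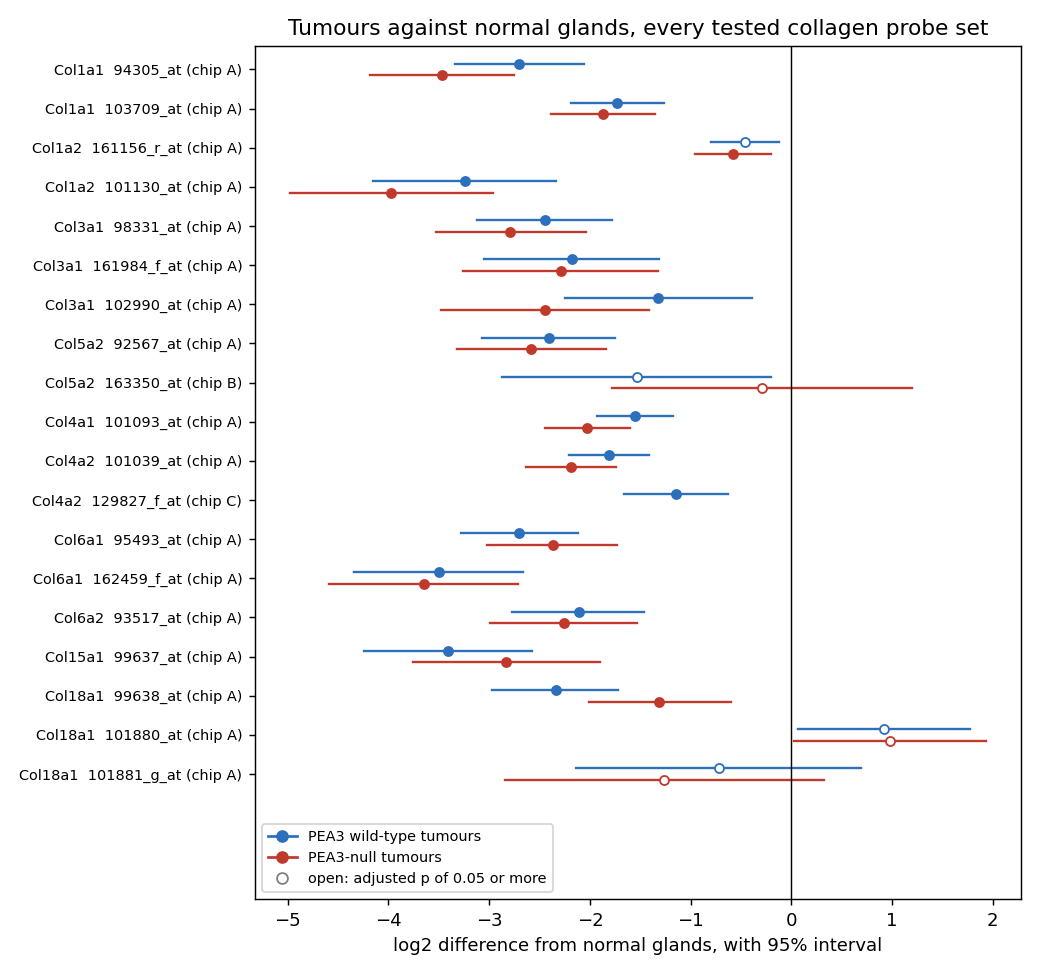
Log2 difference from normal glands with its 95% interval for each of the 19 tested collagen probe sets, in PEA3 wild-type tumours (blue) and PEA3-null tumours (red). Filled points passed an adjusted p under 0.05. Points lie left of 0 apart from Col18a1 101880_at, and the Col1a2 probe sets lie far from each other at -0.46 and -3.24 in wild-type tumours.

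Chains of 1 trimer were compared directly, as the log2 ratio of their brightest probe sets in each sample, with 6 exact two-sided permutation tests over samples, for which 0.1 was the smallest p possible. The Col4a1 to Col4a2 ratio differed from normal glands by 0.26 in wild-type tumours (exact p 0.3) and 0.16 in PEA3-null tumours (exact p 0.2). The Col6a1 to Col6a2 ratio differed by -0.59 (exact p 0.2) and -0.11 (exact p 0.7). The Col1a1 to Col1a2 ratio differed by -2.24 and -2.89 (exact p 0.1 and adjusted p 0.3 for both), and turned to 0.54 and 0.51 when Col1a2 was read by 101130_at, a choice made after seeing the data. The other adjusted p-values were 0.3 to 0.7. The smallest possible p lay above the threshold, so none of the 6 tests could pass with this number of samples. They cannot decide whether the chain ratios differed.

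PEA3-null tumours were next set against wild-type tumours, the comparison that asks whether collagen signal depends on PEA3. None of the 18 tested collagen probe sets passed (limma adjusted p under 0.05), and 4 had an unadjusted p under 0.05. None passed under any alternative setting or with any RNA sample left out. Over all 19275 probe sets 0.192% passed in either direction and 2031 had an unadjusted p under 0.05. In 3 of the 18 collagen probe sets both PEA3-null tumours read below all wild-type tumours (Col3a1 102990_at, Col4a1 and Col4a2 on chip A), where 11.6% of all probe sets did. Col3a1 102990_at was under 150 in all 5 tumours, and without the 4 probe sets that entered through the normal glands the count was 2 of 14. The share of all probe sets was not computed with that exclusion. The median log2 difference of the 10 genes was -0.16 and that of all tested probe sets 0.01.

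The 10 genes ranged from -0.77 for Col1a1 (95% interval -1.48 to -0.05, limma adjusted p 0.434) to 1.04 for Col18a1 (0.34 to 1.74, adjusted p 0.273). Col18a1 thus read 2.05-fold higher in the PEA3-null tumours, with no overlap of the groups, but this did not pass. Its other tested probe sets gave 0.06 and -0.53. Col4a1 differed by -0.48 (-0.90 to -0.05, limma adjusted p 0.404) and Col4a2 by -0.37 (-0.82 to 0.07, adjusted p 0.555). For Col3a1 the value was -0.34 (-1.08 to 0.41) and for Col5a2 -0.17 (-0.90 to 0.57). For Col6a1 it was 0.33 (-0.32 to 0.97), for Col6a2 -0.15 (-0.88 to 0.58) and for Col15a1 0.57 (-0.36 to 1.51). Several of these values rest on 1 sample. Without PEA3-null tumour 1, Col1a1 moved to -1.16, Col5a2 to 0.31, Col6a1 to 0.88, Col6a2 to 0.39 and Col1a2 from -0.12 to 0.07. Without PEA3-null tumour 2, Col1a1 moved to -0.37, Col5a2 to -0.64, Col6a1 to -0.23 and Col6a2 to -0.68, and without wild-type tumour 2 Col3a1 moved to 0.07. The intervals are wide for most of these genes, and a lack of calls does not show that the genotypes are alike.

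**Figure D3:**
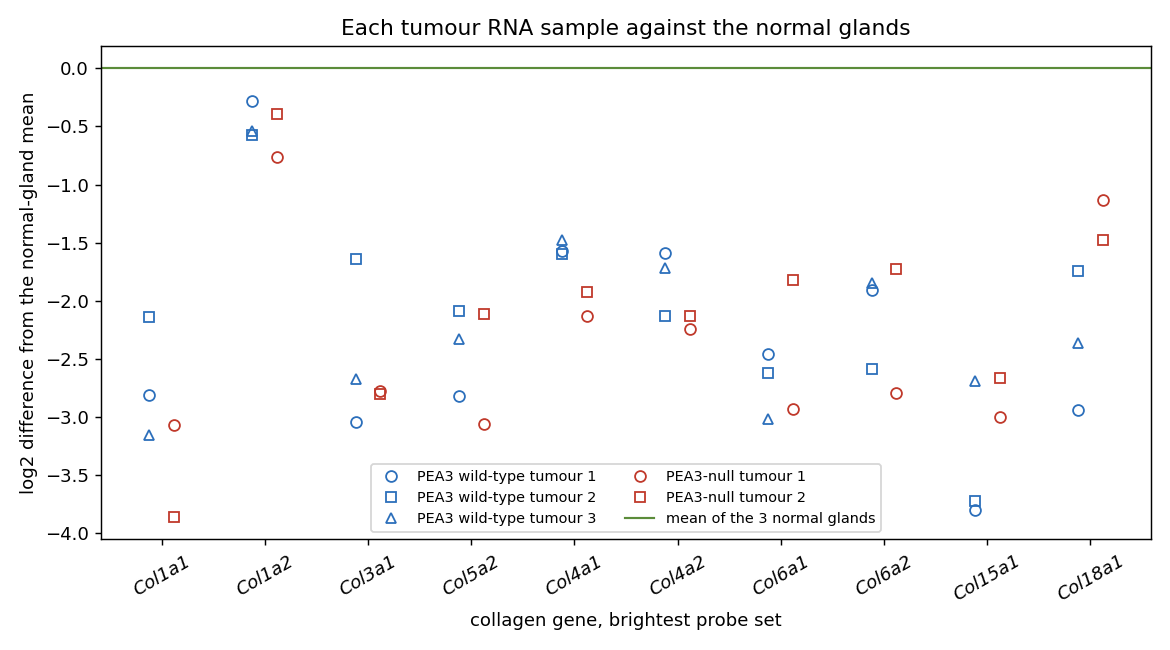
Log2 difference of each tumour RNA sample from the mean of the 3 normal glands (line at 0), for the brightest probe set of each collagen gene. PEA3 wild-type tumours are blue and PEA3-null tumours red. Col18a1 is the gene with both PEA3-null tumours above all wild-type tumours. Wild-type tumour 2 is the highest of the 5 tumours for Col1a1, Col3a1 and, narrowly, Col5a2.

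Genes that process collagen were called in both directions. Of 24 processing and crosslinking genes on the arrays 23 were tested, and in wild-type tumours 7 were lower, 3 higher and 13 not called (median log2 difference -0.14). That is 43.5% called, where 20.8% of all probe sets were called in either direction. In PEA3-null tumours 4 were lower, 2 higher and 17 not called (median -0.15), which at 26.1% is near the 24.6% of all probe sets called in either direction. Of the genes called lower, P3h3 was under 150 in every tumour and Loxl1 in every tumour but wild-type tumour 3, so both entered through the normal glands. Among those called higher in wild-type tumours, Lox was under 150 in every normal gland and P3h4 in all but normal gland 3. Those genes entered through the tumours, which favours a call of higher. Pcolce, which speeds the removal of the procollagen C-propeptide, fell by 2.53 on the log2 scale in wild-type tumours (limma adjusted p 2.39e-05) and fell by 2.69 in PEA3-null tumours (adjusted p 3.95e-05), and its relative Pcolce2 changed by -2.17 and -2.69. P3h1, a collagen prolyl 3-hydroxylase, changed by -2.49 in wild-type tumours (limma adjusted p 0.0105) and read -1.70 in PEA3-null tumours (adjusted p 0.0902). Ppib, the cyclophilin of the prolyl 3-hydroxylase complex, rose by 2.04 and 1.63 (limma adjusted p 0.00026 and 0.00261). Serpinh1, the collagen chaperone HSP47, differed by -0.02 and 0.06 (limma adjusted p 0.946 and 0.86), chosen here after its values were seen.

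Of 10 collagen receptor genes, 8 were tested in wild-type tumours, with 3 lower, 1 higher and 4 not called. That is 50.0% called, where 20.8% of all probe sets were called in either direction. In PEA3-null tumours, where chip C did not enter, 6 were tested, with 1 lower, 1 higher and 4 not called. That is 33.3%, beside 24.6% of all probe sets. Adgrg1, a receptor for type III collagen, changed by -2.26 and -2.28 (limma adjusted p 0.000374 and 0.000787). Its tumour signals of 65.3 to 82.6 were all under 150, so it entered through the normal glands and the size of its change is imprecise. The discoidin receptor Ddr1 of epithelial cells rose by 1.52 and 1.77 (limma adjusted p 0.000283 and 0.000215). In wild-type tumours the integrin chain Itga1 changed by -2.07 and the uptake receptor Mrc2 by -1.95 (limma adjusted p 0.0284 and 0.00962). Itga1 was read on chip C alone, at 496 to 879.5 in normal glands and 266.6 and 69.8 in the wild-type tumours on that chip. The 1 PEA3-null tumour there read 670.7, within the range of the normal glands.

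Among 30 other collagen genes on the arrays, 21 were tested in wild-type tumours, with 2 lower, 3 higher and 16 not called, and a median log2 difference of -0.09. The 23.8% called was near the 20.8% of all probe sets. In PEA3-null tumours 20 were tested, with 2 lower, 4 higher and 14 not called, beside the 24.6% of all probe sets called in either direction. Col14a1, a fibril-associated collagen, was lower beside Col6a3 (-1.95, limma adjusted p 0.016). Col9a1, a chain of type IX collagen, read 89.7 to 208 in normal glands and 27380 to 33130 in wild-type tumours (log2 difference 7.54, limma adjusted p 4.08e-09). Col11a1, a chain of the fibrillar type XI, rose by 3.69 (limma adjusted p 2.75e-06). Of the other type IX chains, Col9a3 rose by 1.04 (limma adjusted p 0.00271) and Col9a2 differed by 0.36 (adjusted p 0.262), both named after their values were seen. Col9a1, Col11a1 and Col9a3 also rose in PEA3-null tumours, by 6.96, 3.20 and 1.34 (limma adjusted p 2.25e-08, 2.2e-05 and 0.000956). The fourth gene higher there was Col4a5, a type IV chain (1.44, limma adjusted p 0.036). Its normal glands read 89.4 to 99.7, so it entered through the tumours too. Against wild-type tumours, no gene of the processing, receptor or other collagen lists passed in PEA3-null tumours.

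Cell type markers were read beside the collagens. In wild-type tumours 9 of 10 fibroblast markers were lower (median log2 difference -2.91), as were 8 of 11 endothelial markers (-1.77) and 6 of 7 smooth muscle and pericyte markers (-1.72). In PEA3-null tumours the counts were 9 of 10, 9 of 11 and 6 of 7 (-2.88, -1.82 and -2.04). Of all tested probe sets 10.3% were called lower in wild-type and 12.4% in PEA3-null tumours. Of the markers called lower, Fap, Vwf, Tie1, Tek, Cnn1 and Cspg4 were under the signal minimum of 150 in every tumour. Cdh5 was under it in every tumour but PEA3-null tumour 1. These markers entered through the normal glands, which favours a call of lower, and the sizes of their changes are imprecise. Adipocyte and skeletal muscle markers were lower in all 8 and all 7 cases in both genotypes. Some of these entered through the normal glands as well. Ckm was under the signal minimum in every tumour, and Retn in every tumour but PEA3-null tumour 1. Pparg, Cidec, Myh4 and Tnnt3 were under it in every tumour but PEA3-null tumour 2. Schwann cell markers were lower for 2 of 3 in both, and macrophage markers went both ways, with 1 lower and 2 higher of 6 in wild-type tumours. On chip A the summed endothelial signal was 6492 to 7638 in normal glands, 1372 to 2500 in wild-type and 1826 to 1898 in PEA3-null tumours. The smooth muscle sum was 5255 to 6271, 1212 to 1700 and 1064 to 1234. The part of these cell types in the collagen differences was not tested.

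**Figure D4:**
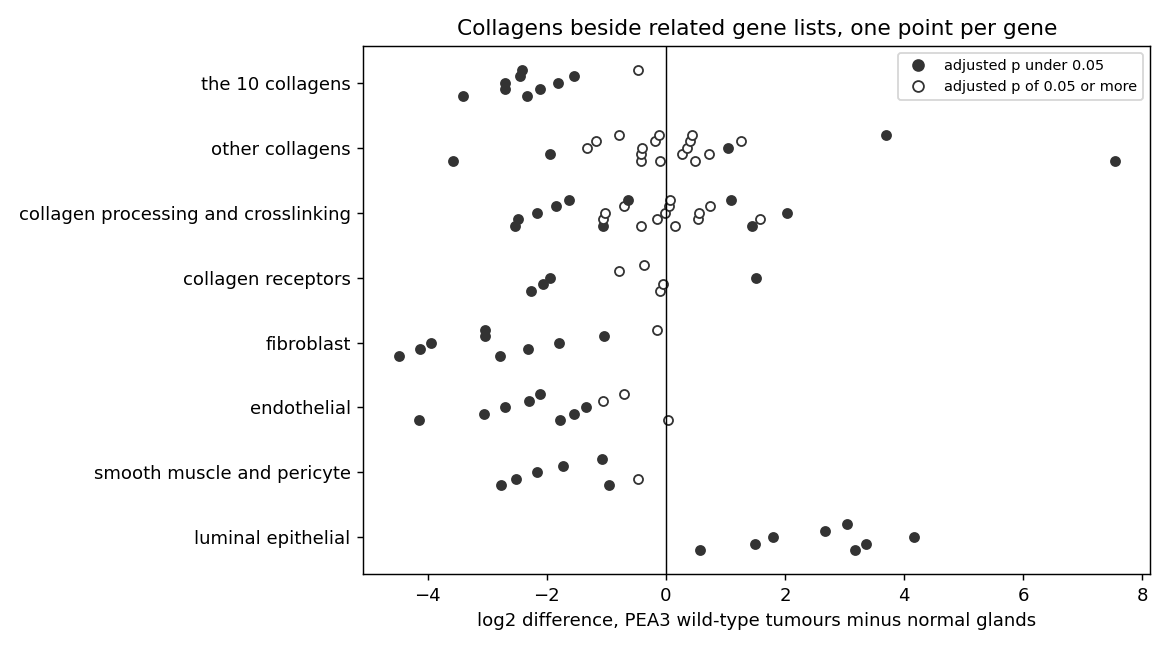
Log2 difference between PEA3 wild-type tumours and normal glands for the 10 collagens and 7 related gene lists, with 1 point for each tested gene by its brightest probe set. Filled points passed an adjusted p under 0.05. The collagens lie between -3.41 and -0.46, a range shared with fibroblast, endothelial, and smooth muscle and pericyte markers, while luminal epithelial markers lie above 0. Adipocyte, skeletal muscle, Schwann cell and macrophage markers are not drawn.

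The genes whose profile over the 8 RNA samples was closest to that of Col3a1 were sought among 11740 genes, as the smallest root mean square log2 difference after subtracting the normal-gland mean. They were Pcolce (0.22), Smarcd3 (0.28), Spn (0.29), Gja1 (0.29) and Zap70 (0.30), and Col5a2 came at rank 10 (0.34). The other members ranked from 70 (Col1a1, 0.48) to 2974 (Col1a2, 1.71). Col1a2 was read here by its brightest probe set, which changed far less than its other probe set. The rank of Col1a2 by that other probe set was not computed. For Col4a1 they were Prkar2a (0.17), Dag1 (0.18), Sptbn1 (0.19), Ednrb (0.20) and Aifm2 (0.21), with Col4a2 at rank 14 (0.23). The other members ranked from 369 (Col6a2, 0.48) to 3992 (Col15a1, 1.24). These distances are descriptions over 8 samples that share arrays and the gap between tumour and normal gland.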

How the data were processed

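Total RNA was hybridised to Affymetrix MG-U74 version 2 chips. The values used are probe set intensities on a linear scale, deposited by the authors and made with MAS5 per the submitters' processing notes; its version and settings are not given in the sources used here. The other deposited files, 1 per array, hold scanner and fluidics settings (unit: other), used for scan day and wash status. Each array was scaled to a 2% trimmed mean of 500 over probe sets that are no controls, 32 was added and log2 taken. Probe sets that reached 150 in 2 or more arrays per chip type entered limma 3.58.1 (R 4.3.3), lmFit and eBayes with a variance trend, 3 groups in 1 fit per chip type. P-values were adjusted by Benjamini-Hochberg over chips A, B and C (8820, 10455 and 8967 tested), or A and B where PEA3-null tumours entered, at a threshold of 0.05. Gene names came from the platform annotation, updated through RefSeq gene identifiers: 29131 probe sets had 1 symbol (29110 matched), 724 several and 6846 none. Every member was named. Of each related list, up to 4 genes past the threshold with the largest changes in wild-type tumours were named; Serpinh1, Col9a3, Col9a2 and Col4a5 were added after their values were seen. The members and lists were chosen with earlier results of these data known. The number of arrays limits the precision. Alternatives were another scaling, added constant, filter, variance model, block, sample subset and each RNA sample left out.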

Additional observations from a re-analysis of the deposited data

How the results depend on the processing

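The counts of collagen probe sets called stayed within 1 of the main count in every alternative run except the one without the aborted-wash arrays. Leaving out 1 RNA sample at a time gave 14 to 16 lower in wild-type tumours, 14 to 15 in PEA3-null tumours and 0 to 0 changed between tumour genotypes. Without the 2 chip A normal arrays whose wash was aborted, 11 of 16 tested probe sets were lower in wild-type tumours and 9 of 15 in PEA3-null tumours; chip A then held 1 normal array, assumed to vary like the other groups. On chip A, deviations from the group means of the 7 same-number pairs correlated at -0.11 to 0.07. Such deviations sum to 0 within each small group, so these values cannot decide whether samples were paired. With the replicate number as a block 14, 14 and 0 collagen probe sets were called. By their brightest probe sets, the genes other than Col1a2 and Col18a1 were lower than normal in both genotypes under every alternative that could be fitted. Col1a2 passed in 7 of 20 alternatives in wild-type and 12 of 20 in PEA3-null tumours. Col18a1 missed in PEA3-null tumours without the aborted-wash arrays (limma adjusted p 0.127) and without PEA3-null tumour 2 (adjusted p 0.0676). The Col1a1 to Col1a2 ratio reversed to 0.54 in wild-type and 0.51 in PEA3-null tumours with the other Col1a2 probe set, an alternative added after seeing the data. Between genotypes the share of all probe sets called was 0.192%, 0.0604% with no filter, 0.0208% without the variance trend, 0.0156% with array weights or the block, 0.0337% with the 2 groups alone, 0.0742% without the aborted-wash arrays, 0.074% on chip A tumours alone and 0.016% to 1.28% leaving out 1 sample. The share of all probe sets called in PEA3-null tumours against normal glands was 15.7% without the aborted-wash arrays. The causes were not tested. Scan day as a random block was run on chip B alone.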
